A study of Caenorhabditis elegans with 12 samples.

Results

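The major sperm protein genes and 4 smaller families of sperm genes of C. elegans were followed in whole worms on PA14 and on E. coli. They were taken by symbol, as all genes starting with msp- (major sperm protein), ssp- (sperm-specific family, class P), spe- (defective spermatogenesis), sss- (sperm-specific family, class S) or nspd- (nematode-specific peptide family, group D). The deposited data listed 81 such genes among 17430, and 76 of them reached 10 in 3 or more of the 12 libraries and so belonged to the 12908 genes tested. These 76 were 30 of 30 msp, 12 of 12 ssp, 24 of 29 spe, 1 of 1 sss and 9 of 9 nspd genes. The rule used names and a minimum level only and named no direction of change. Even so, 14 of the 76 genes reached the minimum in E. coli libraries only, and could be tested only through them. The families were chosen with earlier results of these data known.

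RNA came from whole bodies of wild-type N2 worms, which carried no mutation or transgene and were labelled adult. They were fed bacteria for stt-3 RNAi or control RNAi until the L4 larval stage, washed, and moved to PA14, a pathogenic strain of Pseudomonas aeruginosa, or to the same RNAi bacteria (E. coli). Worms were harvested 12 h later, so that those on PA14 had left the RNAi bacteria at that time. The 4 conditions were stt-3 RNAi on PA14, control RNAi on PA14, stt-3 RNAi on E. coli and control RNAi on E. coli, with 3 libraries each. Whether the 3 came from separate cultures is not given in the labels. The p-values thus measure the spread between these libraries, which may be technical, as left after the authors' batch correction with RUVSeq. The fit made no allowance for the variation removed by that correction, so that p-values may be too small. The value of stt-3, which encodes the catalytic subunit of the oligosaccharyl transferase, was not lower in the libraries that carry the stt-3 RNAi label. It was 469 to 551 in these libraries and 367 to 434 in control RNAi on PA14, and 461 to 488 against 398 to 434 on E. coli. The endoplasmic reticulum chaperone gene hsp-4, chosen after seeing the data, did separate the labels. It was 8158 to 9999 in the libraries with the stt-3 RNAi label and 1216 to 1743 in control RNAi on PA14, and 3507 to 7193 against 1147 to 1357 on E. coli, and hsp-3 and enpl-1 were likewise higher without overlap on both foods. Since the targeted gene itself was not lower, the libraries are named by their label, as the stt-3 RNAi-labelled libraries. The authors' values are a normalized score rounded to whole numbers, not read counts, and the depth behind them is unknown.

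The sperm of nematodes have no flagellum and crawl by a pseudopod, which is filled by filaments of major sperm protein (MSP) instead of actin. In the developing sperm MSP is packed into fibrous bodies attached to membranous organelles, and it is later released as the signal that makes oocytes mature and the gonadal sheath contract. A hermaphrodite makes its sperm late in larval life, before its germ line turns to oocytes, and stores them in the spermatheca. The msp genes are near-identical copies in clusters, whereas most spe genes were found through mutants with defective sperm and encode single proteins of sperm assembly, activation or fertilization.

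The sperm families fell on PA14 in both RNAi groups. Of the 76 genes, 68 were called lower and 0 higher on PA14 in the stt-3 RNAi-labelled libraries, where 14% of all genes tested were called lower and 8.3% higher. In control RNAi 68 were again called lower and 0 higher, where 15.9% of all genes were called lower and 10.7% higher. A gene was called at a change of more than 2-fold with a Benjamini and Hochberg adjusted p under 0.05 in limma. The same 68 genes were called in both RNAi groups, 8 genes were called in neither, and no gene in 1 group only. Of the 68, 13 had reached the minimum in E. coli libraries only. Among the 60 genes with 3 or more PA14 libraries at 10, 54 were called lower in each RNAi group. The median log2 fold change of the 76 genes was -3.43 in the stt-3 RNAi-labelled libraries and -3.43 in control RNAi, against 0.07 and 0.04 for all genes tested. Every library on PA14 was below every library on E. coli for 71 of the 76 genes in the stt-3 RNAi-labelled libraries, where the same held for 23.0% of all genes. In control RNAi this was so for 68 genes, against 28.9% of all genes. In whole worms, fewer sperm or spermatocytes and less RNA in each of them cannot be told apart.

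The summed value of the 76 genes was 11.9-fold lower on PA14 in both RNAi groups. In the stt-3 RNAi-labelled libraries the sum averaged 11930 ± 2600 on PA14 and 141400 ± 39600 on E. coli (SD, n = 3 each), and in control RNAi 11250 ± 4090 and 133500 ± 65800. The families made up 0.172% to 0.27% of all values in the stt-3 RNAi-labelled libraries on PA14, against 1.58% to 2.27% on E. coli. In control RNAi their share was 0.0989% to 0.24% on PA14, against 1.11% to 2.41% on E. coli. The sums on PA14 and on E. coli did not overlap in either RNAi group. By family, the mean sum in the stt-3 RNAi-labelled libraries was 13.0-fold lower for msp, 11.6-fold for nspd, 9.24-fold for sss-1, 9.11-fold for ssp and 2.55-fold for spe genes. In control RNAi it was 13.4-fold, 11.3-fold, 10.3-fold, 7.67-fold and 2.42-fold lower in the same order of families. The spe sum held genes of higher level that differed little between the foods. spe-48, for instance, had a mean of 245.7 within a spe sum of 671.7 in the stt-3 RNAi-labelled libraries on PA14. The median log2 fold change of the spe genes was -2.21 in the stt-3 RNAi-labelled libraries and -2.4 in control RNAi.

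**Figure D1:**
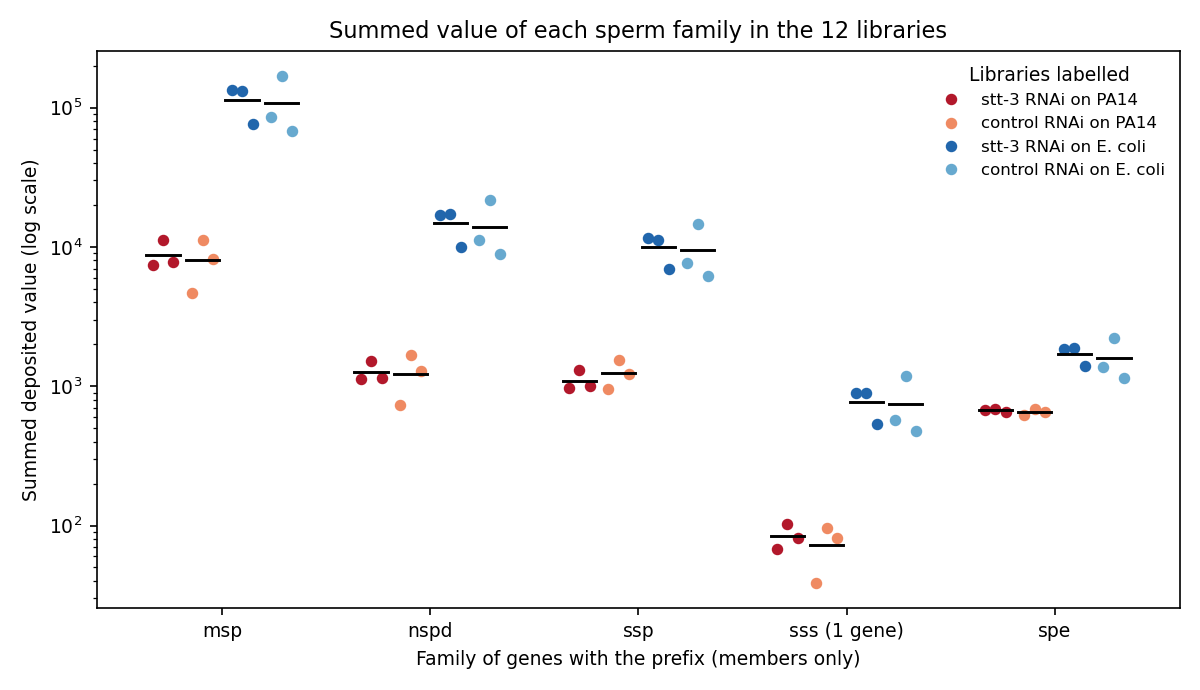
Summed deposited value of the genes of each family in every library, on a log axis, with 1 point per library, the mean of 3 as a bar and the 4 conditions in colours. The msp sums lay between 7396 and 11292 in the stt-3 RNAi-labelled libraries on PA14 and between 76864 and 133292 on E. coli, and the spe sums were closest to each other across conditions.

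The msp genes held most of the value of the families. Per kilobase of exon, the median msp gene had a mean value of 5731 over the 12 libraries, against 4002 for nspd, 889 for ssp, 455 for sss-1, 18 for spe genes and 59.4 for all genes tested. The highest was msp-31 (WBGene00003429; WBcel235 chromosome II, 4916179 to 4916562), a single exon of 384 bp, at 8738 per kilobase, which ranked 188 among all genes tested. All 30 msp genes were called lower on PA14 in both RNAi groups. Their log2 fold changes lay between -4.42 and -3.12 in the stt-3 RNAi-labelled libraries (median -3.69) and between -4.65 and -3.27 in control RNAi (median -3.76), with SEs of 0.36 to 0.57.

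In the stt-3 RNAi-labelled libraries, msp-31 had values of 435, 633 and 437 on PA14, against 7426, 7365 and 4375 on E. coli. In control RNAi it had 284, 672 and 510 on PA14, against 4829, 9472 and 3828 on E. coli. The highest PA14 library was far under the lowest E. coli library in either RNAi group, and the log2 fold changes were -3.65 ± 0.38 (SE; adjusted p = 0.000117) and -3.60 ± 0.38 (SE; adjusted p = 5.7e-05). As msp-31 lies wholly within aagr-2 on the same strand, and msp genes differ by few bases, its reads could have been divided with other genes.

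The next highest were msp-59 (chromosome IV, 5312728 to 5313111) and msp-36 (chromosome IV, 10095433 to 10095816). msp-59 had 405, 602 and 412 on PA14 against 7013, 7234 and 4013 on E. coli in the stt-3 RNAi-labelled libraries, and 248, 556 and 426 against 4320, 9162 and 3550 in control RNAi. msp-36 had 402, 626 and 453 against 6704, 6418 and 3901, and in control RNAi 290, 661 and 522 against 4403, 8615 and 3406. No PA14 library of either gene reached an E. coli library. Their log2 fold changes were -3.66 and -3.51 in the stt-3 RNAi-labelled libraries and -3.74 and -3.44 in control RNAi (SE 0.38 to 0.39).

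In control RNAi msp-63, msp-64 and msp-55 were among the genes with the largest changes. msp-64 (chromosome II, 5809947 to 5810330) had 148, 199 and 155 on PA14 against 3613, 4196 and 2063 on E. coli in the stt-3 RNAi-labelled libraries, and 93, 265 and 191 against 2701, 5467 and 2122 in control RNAi. This was 18.9-fold and 18.7-fold lower on PA14. Its neighbour msp-63, of the same length, was much lower in level, with 6, 11 and 11 against 245, 294 and 134 and, in control RNAi, 2, 14 and 11 against 162, 334 and 155. msp-55 on chromosome IV had 184, 304 and 193 against 3675, 3953 and 2160, and in control RNAi 83, 220 and 171 against 2240, 4577 and 1784. These 3 genes had log2 fold changes of -4.24, -4.42 and -3.83 for msp-64, msp-63 and msp-55 in the stt-3 RNAi-labelled libraries and -4.22, -4.65 and -4.16 in control RNAi. Without msp-63 and msp-74, the lowest in level, the medians of the remaining 28 were -3.69 and -3.74.

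The msp genes lay on 2 chromosomes, 12 on chromosome II between 4785898 and 5810330 and 18 on chromosome IV between 5055631 and 10143740. Their median log2 fold changes on PA14 were -3.84 on II and -3.63 on IV in the stt-3 RNAi-labelled libraries, and -3.83 and -3.68 in control RNAi. Other families were interspersed with them. A stretch of chromosome IV (4994371 to 5316906) held 13 genes, the ssp-9 pair, nspd-3 and nspd-6 among msp genes, and another stretch (9689015 to 9934322) held 13 more, with ssp-10, ssp-32, ssp-36, nspd-2, sss-1 and spe-29 besides msp genes. In these stretches neighbours lay no more than 100000 bp apart. None of the 76 genes lay on the X chromosome, against 12.5% of all genes tested.

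The 9 nspd genes, which encode short peptides, were all called lower in both RNAi groups. Their log2 fold changes were -3.72 to -3.17 in the stt-3 RNAi-labelled libraries and -3.90 to -2.73 in control RNAi. nspd-2 (chromosome IV, 9844060 to 9844272) had 281, 373 and 269 on PA14 against 4039, 4147 and 2348 on E. coli in the stt-3 RNAi-labelled libraries. In control RNAi it had 142, 365 and 294 against 2601, 5041 and 2091. The foods did not overlap, and the log2 fold changes were -3.48 ± 0.39 and -3.60 ± 0.39 (SE; adjusted p = 0.000125 and 6.07e-05). nspd-1 had 166, 237 and 178 against 3067, 3047 and 1753, and in control RNAi 97, 257 and 176 against 1913, 3709 and 1496. nspd-3 had 131, 175 and 131 against 1860, 2003 and 1144, and in control RNAi 77, 185 and 153 against 1262, 2423 and 1028. Neither gene had overlapping foods, and they had log2 fold changes of -3.72 and -3.48 in the stt-3 RNAi-labelled libraries and -3.74 and -3.49 in control RNAi.

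Among the ssp genes, several of which encode small MSP-like proteins, 11 of 12 were called lower in both RNAi groups, with median log2 fold changes of -3.31 in the stt-3 RNAi-labelled libraries and -3.16 in control RNAi. Symbol ssp-9 stood for a pair of genes close together on chromosome IV, WBGene00006038 and WBGene00006040, whose values were nearly alike and may hold shared reads. The first had 185, 272 and 193 on PA14 against 2843, 2707 and 1593 on E. coli in the stt-3 RNAi-labelled libraries, and 131, 271 and 198 against 1755, 3552 and 1364 in control RNAi. The second had 185, 279 and 196 on PA14 against 2897, 2771 and 1638 on E. coli in the stt-3 RNAi-labelled libraries, and 133, 274 and 199 against 1798, 3636 and 1415 in control RNAi. The pair thus differed between the foods by far more than between each other. ssp-10, on another stretch of the same chromosome, had 130, 199 and 144 against 1999, 1972 and 1251, and in control RNAi 132, 236 and 182 against 1293, 2515 and 1083. ssp-19 (chromosome I, 2562668 to 2562997) fell by most, with 22, 36 and 26 against 592, 741 and 337 in the stt-3 RNAi-labelled libraries and 30, 48 and 36 against 523, 958 and 385 in control RNAi. None of these genes had overlapping foods. The log2 fold changes of ssp-19 were -4.22 ± 0.36 and -3.92 ± 0.36 (SE; adjusted p = 7.11e-05 and 4.76e-05). sss-1, the sole gene of its family, had 68, 102 and 81 against 890, 891 and 537 and, in control RNAi, 39, 96 and 81 against 577, 1178 and 478. It was 9.02-fold and 10.1-fold lower on PA14.

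**Figure D2:**
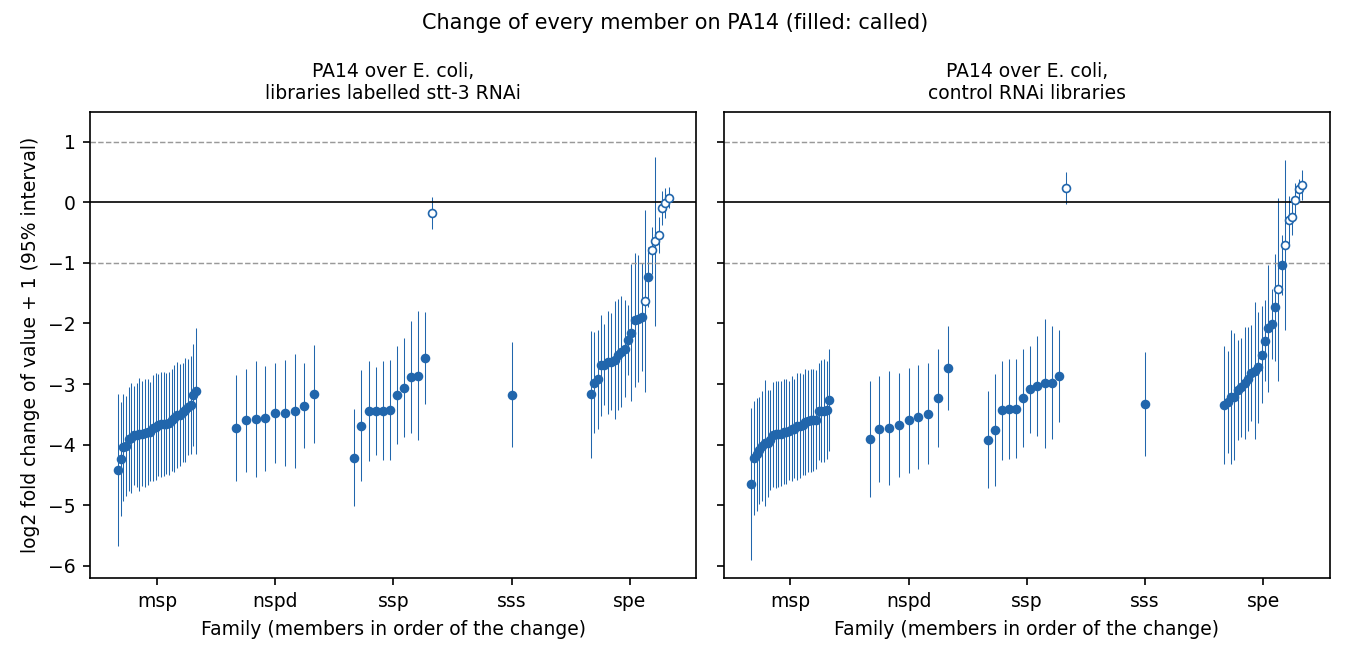
Log2 fold change on PA14 over E. coli of each gene with its 95% interval, by family, in the stt-3 RNAi-labelled libraries on the left and in control RNAi on the right, with filled points for called genes and dashed lines at 2-fold. The msp, nspd and sss genes were all called, ssp-37 stood alone above the other ssp genes, and the spe genes were the most spread, reaching up to 0.08 on the left and 0.29 on the right.

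The spe genes were more varied, since 17 of 24 were called lower and 7 were not called in either RNAi group. Their levels were also lower, and 11 of the 24 reached the minimum of 10 in E. coli libraries only. Such genes could enter the test only by being higher on E. coli. Over all families 14 genes were of this kind, 13 of them called. Split by the mean over all 12 libraries, 52 of the 57 genes with a mean of at least 50 were called lower in each RNAi group, and 16 of the 19 genes below it.

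Among the spe genes that act on fibrous bodies and membranous organelles, spe-4, a presenilin, spe-10, a palmitoyltransferase, and spe-18, which directs MSP into fibrous bodies, were called lower in both RNAi groups. The log2 fold changes were -2.68 for spe-4 and -2.15 for spe-10 in the stt-3 RNAi-labelled libraries and -2.28 for spe-4 and -2.78 for spe-10 in control RNAi. Neither spe-4 nor spe-10 reached 10 in a PA14 library. spe-18 (chromosome II, 13151459 to 13153399) had 37, 50 and 44 on PA14 against 313, 323 and 203 on E. coli in the stt-3 RNAi-labelled libraries, and 21, 46 and 42 against 213, 424 and 171 in control RNAi. It was 6.2-fold and 7.06-fold lower, with no overlap of the foods (adjusted p = 0.000241 and 0.00011). spe-15, a myosin VI, and spe-26, a kelch-type protein, both needed as spermatids bud off, were called as well. spe-15 had 11, 14 and 11 against 63, 73 and 51, and in control RNAi 9, 12 and 11 against 42, 70 and 32. This was 4.85-fold and 4.01-fold lower. spe-26 overlaps R10H10.3 on the other strand, and the use of strand in counting is not given in the sources used here.

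Of 8 genes for the activation of spermatids into crawling sperm, 7 were called lower in both RNAi groups. Of the 8, 7 had no PA14 library at 10 and so could be tested only through their E. coli libraries, and 6 of the 7 calls came from them, all but that of spe-46. The genes called were spe-8, a tyrosine kinase, spe-12, spe-19, spe-27, spe-43, spe-46 and spe-47. Of these, spe-46 had 16, 16 and 11 on PA14 against 111, 124 and 66 on E. coli in the stt-3 RNAi-labelled libraries, and 7, 12 and 10 against 79, 161 and 55 in control RNAi. spe-47, which has an MSP domain, had 6, 5 and 6 against 26, 32 and 16, and in control RNAi 5, 6 and 6 against 20, 42 and 11. Neither gene had overlapping foods, and the log2 fold changes of spe-47 were among the smallest of the called genes, at -1.90 ± 0.40 and -1.74 ± 0.40 (SE; adjusted p = 0.00317 and 0.00419). The remaining gene, spe-29, had 1, 2 and 3 against 12, 10 and 4, and 2, 1 and 1 against 6, 16 and 1 in control RNAi. Its log2 fold changes of -1.63 and -1.44 had SEs of 0.68 and adjusted p of 0.0749 and 0.1. Such low values leave it uncertain.

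The 5 spe genes that stayed under the minimum were at 0 to 3 in the stt-3 RNAi-labelled libraries on PA14 against 0 to 12 on E. coli and at 0 to 1 in control RNAi on PA14 against 0 to 11 on E. coli. They were not tested. Among the genes of fertilization, the tetraspan protein gene spe-38 had 3, 3 and 2 against 17, 15 and 8 in the stt-3 RNAi-labelled libraries and 4, 3 and 1 against 11, 27 and 8 in control RNAi, and was called in both (adjusted p = 0.0076 and 0.00391), again with no PA14 library at 10. The calcium channel gene spe-41 (chromosome III, 3439011 to 3444210) had 8, 11 and 11 against 26, 27 and 21, and in control RNAi 10, 11 and 12 against 21, 33 and 19. The foods did not overlap, but this was the smallest change called, at 2.34-fold and 2.06-fold lower. In control RNAi its call was lost without the second E. coli library (log2 fold change -0.81) and without the first PA14 library (-0.98). spe-36, a secreted sperm protein, was not called, with 16, 4 and 4 against 5, 14 and 17 and, in control RNAi, 4, 5 and 4 against 3, 17 and 8. Its libraries overlapped, and its span from start to end shares 68 bp with that of F40F11.3 on the same strand, a gene with a mean value of 881.

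spe-11, whose protein is brought by the sperm and needed by the embryo, was called lower too. It had 32, 37 and 24 on PA14 against 292, 279 and 186 on E. coli in the stt-3 RNAi-labelled libraries, and 12, 30 and 22 against 172, 354 and 142 in control RNAi. Its log2 fold changes were -2.98 ± 0.38 and -3.30 ± 0.38 (SE; adjusted p = 0.000176 and 6.95e-05), and the foods did not overlap. The remaining gene called, spe-54, had log2 fold changes of -2.92 and -3.06.

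The genes not called in either RNAi group included spe-44, the transcription factor that turns on sperm genes, and spe-6, a casein kinase 1 that acts in spermatocytes and keeps spermatids inactive. spe-44 had 38, 46 and 45 on PA14 against 58, 60 and 71 on E. coli in the stt-3 RNAi-labelled libraries, and 45, 56 and 57 against 64, 56 and 66 in control RNAi. spe-6 had 65, 54 and 64 against 111, 123 and 87, and in control RNAi 82, 69 and 80 against 89, 121 and 77. In the stt-3 RNAi-labelled libraries the foods did not overlap for either gene, and the log2 fold changes were -0.54 ± 0.14 and -0.79 ± 0.18 (SE; adjusted p = 0.00819 and 0.0044), less than the 2-fold required. In control RNAi they were -0.24 and -0.29 with adjusted p of 0.17 and 0.198, and the foods overlapped.

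The genes spe-5, spe-39 and spe-48 differed little between the foods. spe-5, a subunit of the vacuolar proton pump, had 46, 44 and 46 against 42, 44 and 51, and in control RNAi 52, 48 and 46 against 42, 41 and 36. spe-39, which acts in the traffic of vesicles, had 88, 101 and 99 against 94, 97 and 116, and in control RNAi 100, 114 and 107 against 110, 87 and 116. spe-48 had 259, 236 and 242 against 251, 233 and 215, and in control RNAi 243, 223 and 222 against 202, 194 and 195. All their log2 fold changes lay between -0.09 and 0.29, and the 95% intervals of spe-39 on PA14 (-0.37 to 0.19 and -0.24 to 0.33) left out a 2-fold change. spe-5 and spe-48 were the only genes of the families with every control RNAi library on PA14 above every one on E. coli, where 30.5% of all genes were so. Both differences were small, at log2 fold changes of 0.29 and 0.22 (adjusted p = 0.0526 and 0.0357 in limma).

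Whether the fall on PA14 differed between the RNAi groups was tested as an interaction, and no gene of the families passed after adjustment. In the difference between the PA14 changes (stt-3 RNAi-labelled libraries minus control RNAi), 0 of the 76 genes were called, where 0.232% of all genes were called higher and 1.18% lower. The lowest adjusted p was 0.334, for ssp-37, and 1 gene had an unadjusted p under 0.05. The msp differences lay between -0.15 and 0.86 with SEs of 0.51 to 0.80 on the log2 scale, so that a moderate difference in either direction was not detectable. The most positive difference was that of spe-19, at 1.27 (95% interval -0.30 to 2.84), on values of 3 or less on PA14. The gene with the most negative difference was nspd-7, at -0.62 (95% interval -1.61 to 0.36). It had 137, 171 and 135 on PA14 in the stt-3 RNAi-labelled libraries and 180, 245 and 198 in control RNAi on PA14, against 1815, 1860 and 1029 and 1194, 2327 and 937 on E. coli.

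Few genes of the families were called between the RNAi groups. On PA14, 0 of the 76 genes were called higher and 1 lower in the stt-3 RNAi-labelled libraries, where 1.97% of all genes were called higher and 3.34% lower. On E. coli none was called in either direction, where 1.98% of all genes were called higher and 1.23% lower. At an unadjusted p under 0.05 there were 2 genes on PA14 and 2 on E. coli. The median log2 fold change was 0.21 on PA14 and 0.15 on E. coli, against 0.05 and 0.02 for all genes tested, and 61 and 66 of the 76 genes were above 0. The mean msp sum was 8811 ± 2160 in the stt-3 RNAi-labelled libraries and 8048 ± 3270 in control RNAi on PA14, and 114200 ± 32300 against 107700 ± 53400 on E. coli (SD, n = 3 each), with overlapping libraries in both cases. Within replicate numbers the mean log2 msp value differed by 0.68, 0.00 and -0.05 on PA14 and by 0.62, -0.36 and 0.15 on E. coli, with no common sign.

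**Figure D3:**
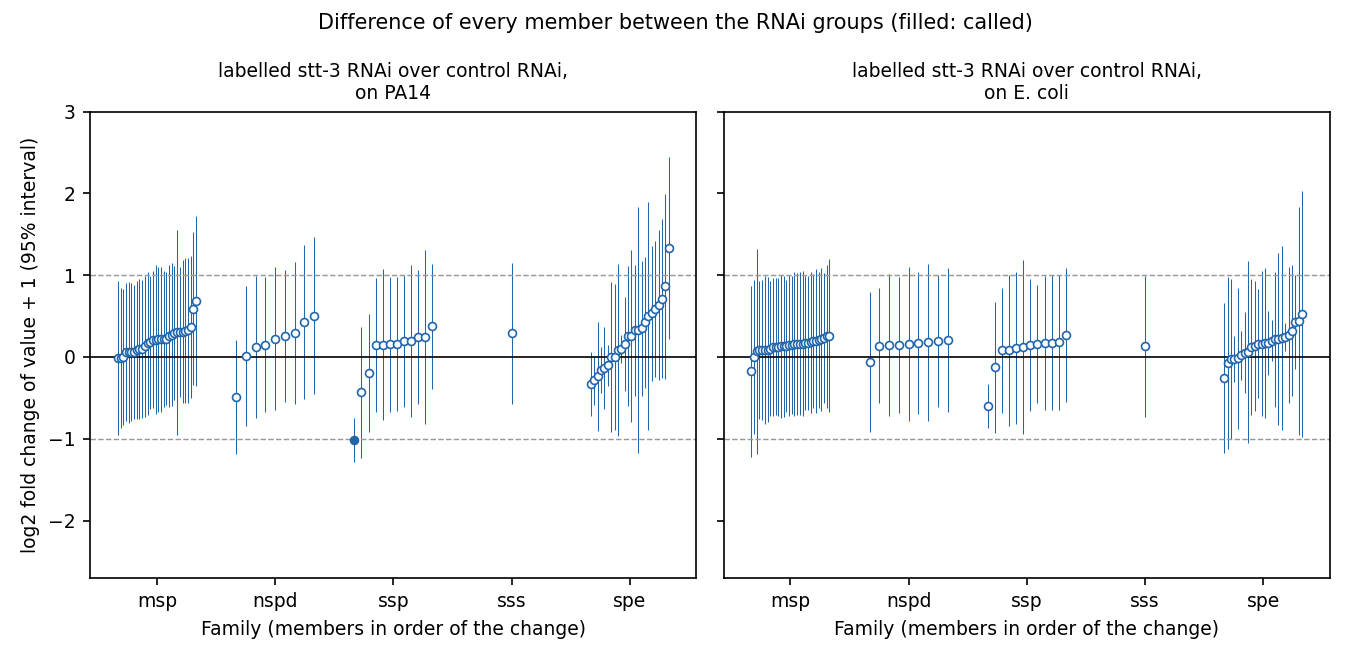
Log2 fold change of each gene in the stt-3 RNAi-labelled libraries over control RNAi with its 95% interval, on PA14 on the left and on E. coli on the right, with filled points for called genes and dashed lines at 2-fold. All but 2 intervals on each food include 0, and ssp-37 on PA14, at -1.01, is the sole filled point.

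ssp-37 (WBGene00012211; chromosome I, 12561040 to 12561560, with 2 exons) was the only gene of the families called between the RNAi groups. Between the foods it was the only ssp gene not called, and 1 of 8 such genes over all families. It had 177, 159 and 194 in the stt-3 RNAi-labelled libraries on PA14 against 390, 339 and 341 in control RNAi on PA14. On E. coli it had 193, 200 and 206 in the stt-3 RNAi-labelled libraries against 269, 367 and 280 in control RNAi. Every stt-3 RNAi-labelled library was below every control RNAi library on the same food, which held for 14% of all genes on PA14 and 12.9% on E. coli. The log2 fold change was -1.01 ± 0.12 on PA14 (SE; adjusted p = 0.000355), just past 2-fold, and -0.60 ± 0.12 on E. coli (SE; adjusted p = 0.016), under it. The call on PA14 was lost without the first control RNAi library on PA14 (log2 fold change -0.94) and without the second stt-3 RNAi-labelled library on PA14 (-0.94). On PA14 over E. coli ssp-37 was not called, at -0.18 ± 0.12 in the stt-3 RNAi-labelled libraries and 0.23 ± 0.12 in control RNAi (SE; adjusted p = 0.26 and 0.129).

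Apart from ssp-37, the RNAi groups did not overlap for spe-6 and nspd-7 on PA14, nor for spe-48 on E. coli. On PA14 spe-6 and nspd-7 were lower in the stt-3 RNAi-labelled libraries, at log2 fold changes of -0.33 and -0.49, and neither was called. With ssp-37 they made 3 of the 76 genes lower without overlap, against 14% of all genes tested. On E. coli spe-48 was higher in the stt-3 RNAi-labelled libraries. spe-48 had 251, 233 and 215 in the stt-3 RNAi-labelled libraries against 202, 194 and 195 in control RNAi, at a log2 fold change of 0.24 ± 0.08 (SE; adjusted p = 0.102 in limma), and 8.99% of all genes on E. coli were likewise higher without overlap.

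The largest value not called between the RNAi groups was that of spe-19, at 1.33 ± 0.50 on PA14 (SE; adjusted p = 0.139). It rested on values of 3, 3 and 1 in the stt-3 RNAi-labelled libraries against 0, 0 and 1 in control RNAi.

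Libraries of the same condition differed by up to 2.47-fold in the msp sum, and the nspd, ssp and sss sums varied as well. The spe sum varied on E. coli, at 1387 to 1891 in the stt-3 RNAi-labelled libraries and 1155 to 2233 in control RNAi. On PA14 it varied little, at 656 to 688 and 623 to 686. In control RNAi on E. coli the second library was highest and the third lowest for 30 of 30 msp genes, with sums of 168502 and 68281. In control RNAi on PA14 the second library was highest and the first lowest for 30 of 30, with 11244 and 4700. Among the stt-3 RNAi-labelled libraries the sums differed by 1.53-fold on PA14, where the second was highest for 30 of 30, and by 1.73-fold on E. coli, where the third was lowest for 30 of 30. The first principal component of the deviations from the condition means held 97.3% of the variance over the msp genes and 82.5% over the 76 genes, against 35.1% over all genes tested. The genes of a family are thus not independent of each other, and counts of genes with the same sign are not that many separate observations. The change on PA14 was larger than this spread, since the highest msp sum on PA14 was 11292 and the lowest on E. coli 68281. Within replicate numbers the mean log2 msp value differed by -4.20, -3.60 and -3.31 in the stt-3 RNAi-labelled libraries and by -4.26, -3.96 and -3.10 in control RNAi.

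**Figure D4:**
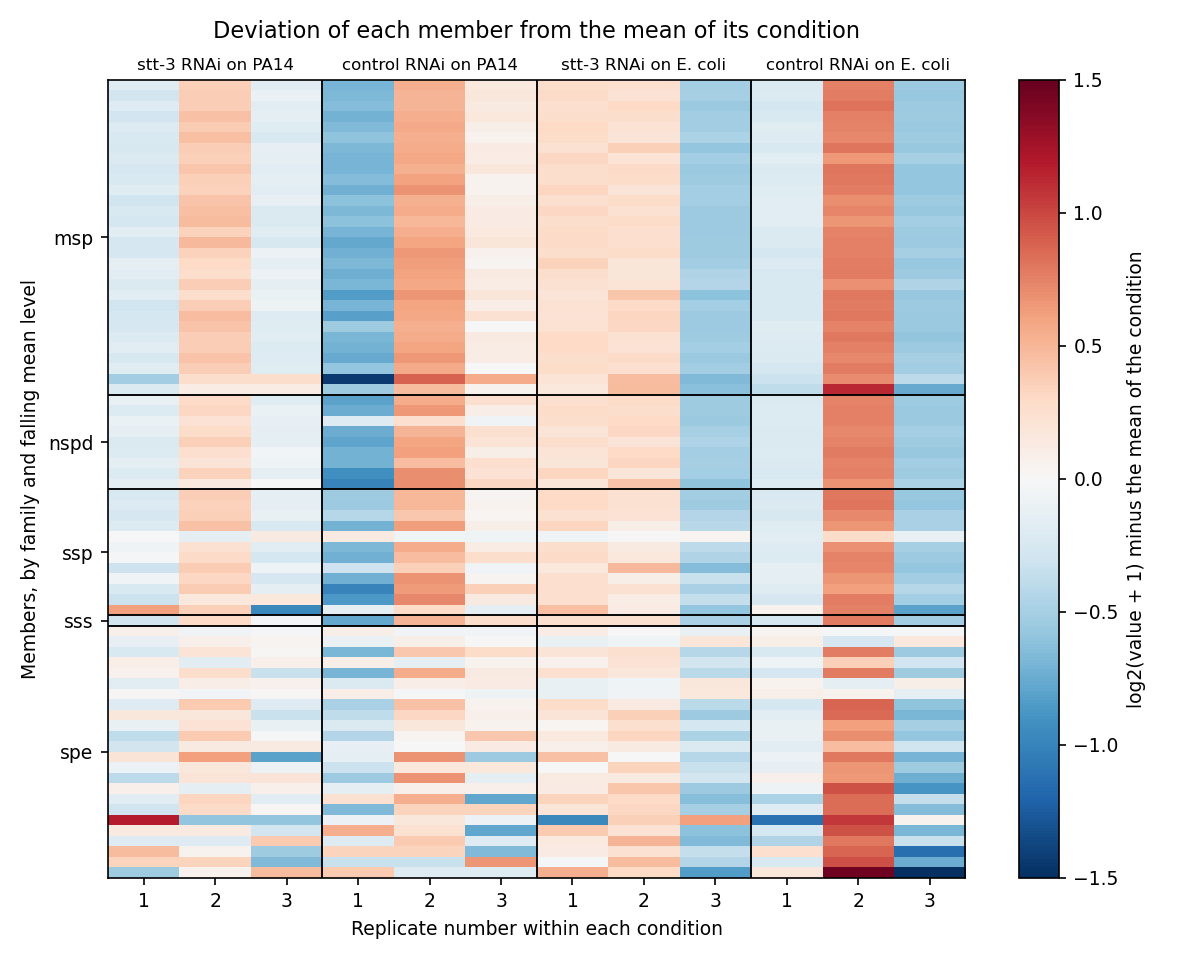
Deviation of log2(value + 1) of each of the 76 genes from the mean of its condition, with genes in rows by family and falling level and the 3 libraries of each condition in columns. The msp, nspd, ssp and sss rows change colour together from library to library, with the second control RNAi library on E. coli highest for 72 of the 76 genes, while ssp-37 and several spe rows stay pale.

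Other genes of sperm and germ line were read from lists by function. Over all genes tested, 14% were called lower and 8.3% higher on PA14 in the stt-3 RNAi-labelled libraries. In control RNAi these shares were 15.9% and 10.7%. Of 27 sperm genes with other names, 25 gene IDs were in the files and 24 were tested. Of these, 21 were called lower on PA14 in either RNAi group. The medians were -3.14 in the stt-3 RNAi-labelled libraries and -3.32 in control RNAi. Among those called, snf-10, peel-1, alg-3, alg-4 and comp-1 had no PA14 library at 10. Such genes could be tested only through their E. coli libraries. The summed value of the 25 was 4738 to 5771 on PA14 against 20858 to 33784 on E. coli in the stt-3 RNAi-labelled libraries, and 4278 to 5849 against 19149 to 41153 in control RNAi. The sperm phosphatase gsp-3 had 42, 61 and 44 on PA14 against 663, 681 and 398 on E. coli in the stt-3 RNAi-labelled libraries, and 21, 56 and 37 against 430, 897 and 350 in control RNAi. The MSP-domain genes msd-4 and msd-2, and ssq-4 of another sperm-specific family, had log2 fold changes of -4.05, -3.73 and -3.44 in the stt-3 RNAi-labelled libraries and -4.13, -3.72 and -3.34 in control RNAi. The 3 genes not called in either RNAi group were cpb-1, a translation regulator of early sperm development, ife-1, an initiation factor, and zipt-7.1, a zinc transporter for activation. ife-1 was lower by less than 2-fold, at -0.35 in the stt-3 RNAi-labelled libraries and -0.54 in control RNAi (adjusted p = 0.00647 and 0.000385 in limma). The changes were -0.32 and -0.09 for zipt-7.1, and -0.07 and 0.09 for cpb-1.

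Genes for the choice of sperm fate did not share a fall of this size. None of the 16 tested, among them fog-1, fog-2, the fem genes and gld-1, was called on PA14 in either RNAi group. The medians were 0.04 in the stt-3 RNAi-labelled libraries and 0.05 in control RNAi. At an unadjusted p under 0.05 there were 3 and 4. gld-1 was lower by less than 2-fold, at -0.44 and -0.43 (adjusted p = 0.0084 and 0.00793 in limma). In control RNAi fbf-2 was at -0.68 (adjusted p = 0.00109 in limma). In the stt-3 RNAi-labelled libraries nos-3 was at -0.37 and fem-3 at 0.34 (adjusted p = 0.038 and 0.0457 in limma). fog-3 was not tested, with 4, 4 and 5 against 7, 11 and 5, and 2, 2 and 1 against 9, 7 and 5 in control RNAi. Of 13 genes of germ cell proliferation and meiosis 0 were called (medians -0.17 and -0.14, with 7 and 5 at an unadjusted p under 0.05), and of 12 genes of oocyte and sheath that receive or pass on the MSP signal 0 were called (medians 0.00 and 0.12, with 1 and 4). The 24 oocyte and eggshell genes had 0 calls, with medians of 0.09 and 0.28 and 2 and 11 at an unadjusted p under 0.05. Their summed value was 64368 to 69752 on PA14 against 48791 to 55534 on E. coli in the stt-3 RNAi-labelled libraries, and 63298 to 68626 against 43806 to 57810 in control RNAi. Much of this lay in perm-2 and perm-4 of the eggshell. Without them the sums of the other 22 genes were 37004 to 39586 on PA14 against 34301 to 39098 on E. coli in the stt-3 RNAi-labelled libraries, which overlapped, and 41478 to 46923 against 27710 to 39672 in control RNAi, which did not. Among 6 genes of sheath and spermatheca tested, 1 was called lower in each RNAi group, the spermatheca gene sth-1, at -1.39 and -2.0. This 1 of 6 was near the share called lower over all genes tested, 14% and 15.9%. No gene of male somatic tissue was tested, since the 4 of 10 in the files summed to 2 to 9 in any library. The summed value of 8 intestine genes, mostly vitellogenins, was 34971 to 41924 on PA14 against 50492 to 57201 on E. coli in the stt-3 RNAi-labelled libraries, and 96938 to 140473 against 74697 to 95687 in control RNAi. Its members were mixed, with 3 called lower and 0 higher in the stt-3 RNAi-labelled libraries (vit-1, vit-3 and vit-4), and 1 called lower (vit-1, at -2.42) and 1 higher (ges-1, at 1.07) in control RNAi. The part of these tissues in the values of the sperm families was not tested.

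**Figure D5:**
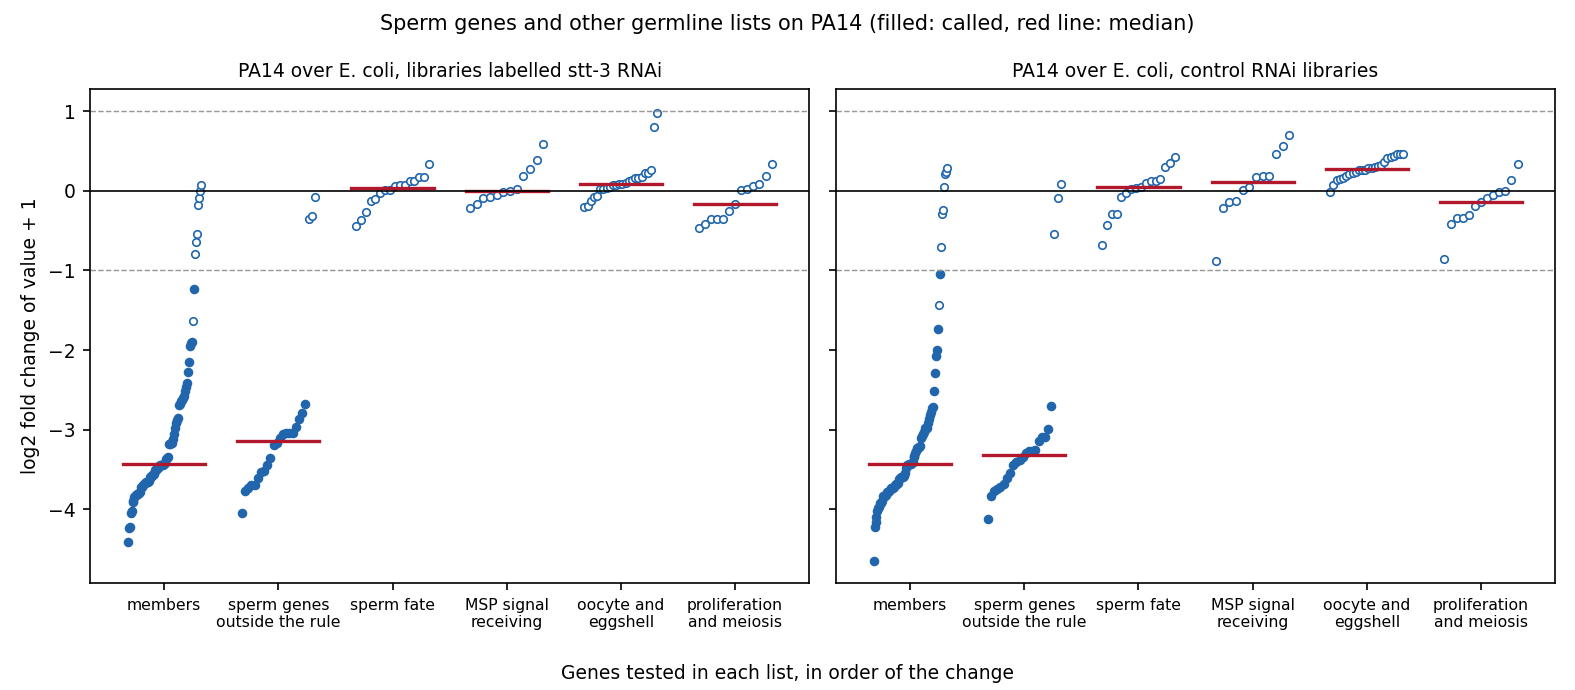
Log2 fold change on PA14 over E. coli of the 76 genes and of the tested genes of 5 germline lists, in the stt-3 RNAi-labelled libraries on the left and in control RNAi on the right, with filled points for called genes, red lines at the medians and dashed lines at 2-fold. The medians of the sperm families (-3.43 in both panels) and of the sperm genes outside them (-3.14 and -3.32) lie far below those of the other lists.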

How the data were processed

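RNA-seq of whole worms was analysed from the 12 deposited gene tables. According to the methods, the authors aligned reads with HISAT2 2.0.5, assembled and quantified genes with StringTie 1.3.3b and Ballgown, and normalized by upper quartile and RUVSeq. The authors deposited the result as a score rounded to whole numbers in a column headed as a count. As this is no read count, count models were not used, depth is unknown, and no interval for counting error can be given. The build was WBcel235. The annotation release, the genes that RUVSeq held constant and the use of strand are not given in the sources used here.

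Symbols and positions came from the reference annotation by WormBase ID (16626 of 17430 IDs matched a symbol, 804 did not). The 12908 genes that reached a value of 10 in 3 or more libraries were fitted as log2(value + 1) in limma 3.58.1 (R 4.3.3) with 4 condition means and a mean-variance trend. Fold changes are on this scale, which understates changes of low genes. P-values were two-sided and adjusted by Benjamini and Hochberg over all 12908 genes. Genes were called at more than 2-fold with an adjusted p under 0.05, in 4 comparisons and their difference. The script was tested on simulated data.

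Genes given with values in every library were the 3 of highest mean in each family, the 3 largest and 3 smallest changes among calls in each comparison, and those not called where over 80% were. Others were named for a known role. nspd-7, spe-19, spe-46 and spe-54 were chosen after their values were seen, as were sth-1 and the genes named from the other lists for not being called. Some genes are not reported by name here. The members and lists were chosen with earlier results of these data known.

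Libraries with the same replicate number deviated together between the RNAi groups on PA14 (correlations of 0.534, 0.255 and 0.394 for numbers 1 to 3 over genes), so that the numbers met the rule for pairs in that comparison. The values reported are from the fit without a block, and the fit with a replicate block was an alternative. For the other comparisons not every pair exceeded 0.1. Alternatives were other pseudocounts (10, and 0.5, which was added after seeing the data), all genes listed, genes with a mean of at least 50, rescaling by median-of-ratios factors, quantile normalization, no trend, only the groups compared, a replicate block and leaving out each library.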

Additional observations from a re-analysis of the deposited data

How the results depend on the processing

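Across the alternatives, 68 of the 76 genes called lower on PA14 became 67 to 69 in control RNAi and 68 to 69 in the stt-3 RNAi-labelled libraries when 1 library was left out, and no call changed direction in any alternative. The number called lower between the RNAi groups on PA14, 1 (ssp-37), became 0 with a pseudocount of 10, and ranged from 0 to 1 when 1 library was left out. It was 0 without the first control RNAi library on PA14 and without the second stt-3 RNAi-labelled library on PA14. The replicate block changed no call of the sperm families and left the counts at 68 on PA14 in either RNAi group, 1 on PA14 and 0 on E. coli between the RNAi groups. With a pseudocount of 10, which shrinks changes of low genes, spe-41, spe-38 and spe-10 lost their calls on PA14 in both RNAi groups and spe-19 and spe-43 in the stt-3 RNAi-labelled libraries. spe-41 in control RNAi also lost its call with quantile normalization. spe-29, at values under 20, gained a call in the stt-3 RNAi-labelled libraries with quantile normalization, with only the groups compared, and without any of 3 E. coli libraries. Over all genes, the counts higher on PA14 were 703 of 12908 in the stt-3 RNAi-labelled libraries and 905 in control RNAi with a pseudocount of 10, against 1071 and 1381. Among the 7656 genes with a mean of at least 50, 431 and 605 were higher and 695 and 799 lower, against 1809 and 2047 lower among all tested. With all 17430 genes listed, 1762 were higher in the stt-3 RNAi-labelled libraries. Between the RNAi groups on E. coli 255 were higher, 137 with a pseudocount of 10 and 146 at a mean of at least 50, where 100 were lower against 159, and on PA14 121 were higher against 254 and 270 lower against 431. With only the groups compared in the fit, 90 were higher and 49 lower between the RNAi groups on E. coli. When 1 library was left out, 159 to 270 were higher and 101 to 200 lower on E. coli, and 163 to 288 and 325 to 482 on PA14. For the difference of the PA14 changes 30 were higher and 152 lower, 14 higher at a mean of at least 50, and 11 to 45 higher and 78 to 205 lower when 1 library was left out. The depth behind a value is unknown, so that genes with values under 10 on PA14 carry an error that these data do not show.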

Other observations

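Genes outside the sperm families followed the same pattern among libraries of a condition. For each gene, the deviations of log2(value + 1) from the condition means were set against those of the mean of the msp genes over the 12 libraries, as a description that was chosen after seeing the data. All libraries share their normalization, and the 12 deviations are only 8 free values. Pearson's r was at least 0.9 for 56 of the 76 genes of the families, with 29 of 30 msp, 9 of 9 nspd, 10 of 12 ssp, 7 of 24 spe genes and sss-1. It was at least 0.9 for 526 of the other 12832 genes (4.1%). All 526 were among the 1979 other genes called lower on PA14 in control RNAi (26.6% of them), and none was among the 1381 called higher or the 9472 not called. The highest r belonged to both copies of Y59E9AR.7 (0.997 and 0.996), the sperm phosphatase gsp-3 (0.997), the MSP-domain gene msd-2 (0.996), ubxn-5 (0.996) and gipc-1 (0.995). On PA14 in control RNAi their log2 fold changes were -3.99 for both copies of Y59E9AR.7, -3.83 for gsp-3, -3.72 for msd-2, -3.57 for ubxn-5 and -3.19 for gipc-1.

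The spermatheca gene sth-1 was lower on PA14 without being a sperm gene. It was the only gene called lower of 6 tested from sheath and spermatheca, where 14% and 15.9% of all genes were called lower. It had 70, 49 and 44 on PA14 against 122, 215 and 108 on E. coli in the stt-3 RNAi-labelled libraries, and 43, 36 and 34 against 133, 230 and 118 in control RNAi. The foods did not overlap.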
